A study of Mus musculus with 33 samples.

Results

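The genotype by dexamethasone interaction at 24 h asks whether quadriceps muscle without alpha-actinin-3 answers a glucocorticoid by a different amount from wild-type muscle, gene by gene. It is the dexamethasone effect in Actn3 null (KO) mice minus the dexamethasone effect in wild-type (WT) mice, each taken against saline. The libraries were chosen by their genotype, treatment and time labels, and 17 of the 33 libraries of the series are of the 24 h time. They are 5 from KO mice given dexamethasone, 3 from KO mice given saline, 5 from WT mice given dexamethasone and 4 from WT mice given saline. All mice were adult males labelled C57BL6, and the treated ones had 1 intraperitoneal bolus of dexamethasone sodium phosphate at 20 mg/kg. The labels give no age beyond adult, and they name no further allele or agent in any group. A null mouse lacks the gene from conception and in every cell, so the KO groups do not separate the loss in adult fibres from the loss in development. The other 16 libraries, taken at 3 h, serve below as the same measure in other libraries.

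Alpha-actinin-3 is an actin-crosslinking protein that anchors thin filaments at the Z-disc of fast muscle fibres, and its relative alpha-actinin-2 is present in all fibres. Dexamethasone binds the glucocorticoid receptor, a transcription factor that moves to the nucleus and binds DNA as a dimer, at a palindrome of paired hexamers. In muscle, sustained glucocorticoid exposure is known for protein breakdown through the ubiquitin and proteasome system, for a shift of fuel use towards fatty acids and for suppressed inflammation. An interaction value of 0 means an equal log2 effect in both genotypes, and a log2 value of 1 is a 2-fold difference.

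The 24 h libraries held a median of 28.2 M gene counts (lowest 19.7 M, highest 42.8 M), and 15199 to 16111 genes had a count. Actn3 (GRCm38 chr19:4861216-4877909) was at 31.9 to 65.8 CPM (gene counts scaled to a common library size) in the 8 KO libraries and 6960 to 9010 CPM in the 9 WT libraries, so no library went against its genotype label. Its own interaction was -0.33 on the log2 scale (adjusted p = 0.777, edgeR quasi-likelihood test with Benjamini-Hochberg adjustment, as for every adjusted p below). The first principal component of the 17 libraries (24.5% of the variance) ran from 8.7 to 30 in dexamethasone libraries and from -34 to -13.4 in saline libraries. The second (15.1%) ran from 1.8 to 35.3 in KO libraries and from -23.2 to -1.2 in WT libraries. The third (12.8%) ran from -31.1 to -18.9 in the 4 libraries whose names start with ML1716 and from -11 to 21.8 in the 13 whose names start with ML1715. What this name series stands for is not given in the sources used here. Of the 4, 2 are KO dexamethasone libraries (replicates 4 and 5), 1 is a WT dexamethasone library (replicate 5), 1 is a WT saline library (replicate 4) and 0 are KO saline libraries. Whether every library came from its own mouse is not stated in the labels, and p-values measure only the spread between libraries. Whole muscle was sequenced, in which fewer cells of a type and less RNA per cell cannot be told apart.

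Of 13955 genes tested, 0 had an interaction at an adjusted p below 0.05, which is 0% of the genes. At an unadjusted p below 0.05 there were 858 genes (6.15%), of which 464 had values above 0 and 394 below. DESeq2 called 3 genes, which were 2310022B05Rik, Sult1e1 and Doc2b, and limma-voom with sample weights called 1, which was 2310022B05Rik. Over all genes the median interaction was 0.01 and the median standard error 0.204, with an interquartile range of 0.154 to 0.311. The 95% interval of the interaction lay within 2-fold in either direction for 10820 genes (77.5%) and within 1.5-fold for 6646 (47.6%). For the remaining genes the interval reached past 2-fold in at least 1 direction. The authors' deposited table of the genotype by treatment interaction names no time point and is taken here to cover both times. In it 0 of 12885 genes had an adjusted p below 0.05 and 916 an unadjusted p below 0.05. The smallest adjusted p of the authors' deposited table was 0.154, for Odf3l2.

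The effects whose difference is tested were themselves measurable in each genotype. Dexamethasone changed 1520 genes in KO muscle (10.9%; 819 rose and 701 fell) and 1919 genes in WT muscle (13.8%; 945 rose and 974 fell, or 677 and 1079 with scaling by library totals alone). The authors' deposited tables of the dexamethasone effect at 24 h cover 12885 genes. Of these, 3114 in KO and 2170 in WT had an authors' adjusted p below 0.05. Which genotype had more calls thus differed between the analyses. The KO and WT lists of the reported fit shared 819 genes, which are 53.9% of the KO calls and 42.7% of the WT calls. All 819 moved in the same direction (430 up and 389 down). Of the 701 genes called in KO alone, 654 (93.3%) had the same sign in WT, and of the 1100 called in WT alone, 1014 (92.2%) had the same sign in KO. Over all 13955 genes 69.3% had the same sign. Of the 2620 genes called in either genotype, 0 had a called interaction, 191 of those called in KO alone and 198 of those called in WT alone had an unadjusted interaction p below 0.05, and so did 31 of the 819. Over all 13955 genes 858 had such a p (6.15%). Calls in 1 genotype alone rest on the effects whose difference is the interaction, in the same libraries, so nothing is read from these counts. The log2 effects in KO and WT, which come from separate libraries, had a Spearman rho of 0.56 across the 13955 genes, as a description over genes that are not independent of each other.

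**Figure D1:**
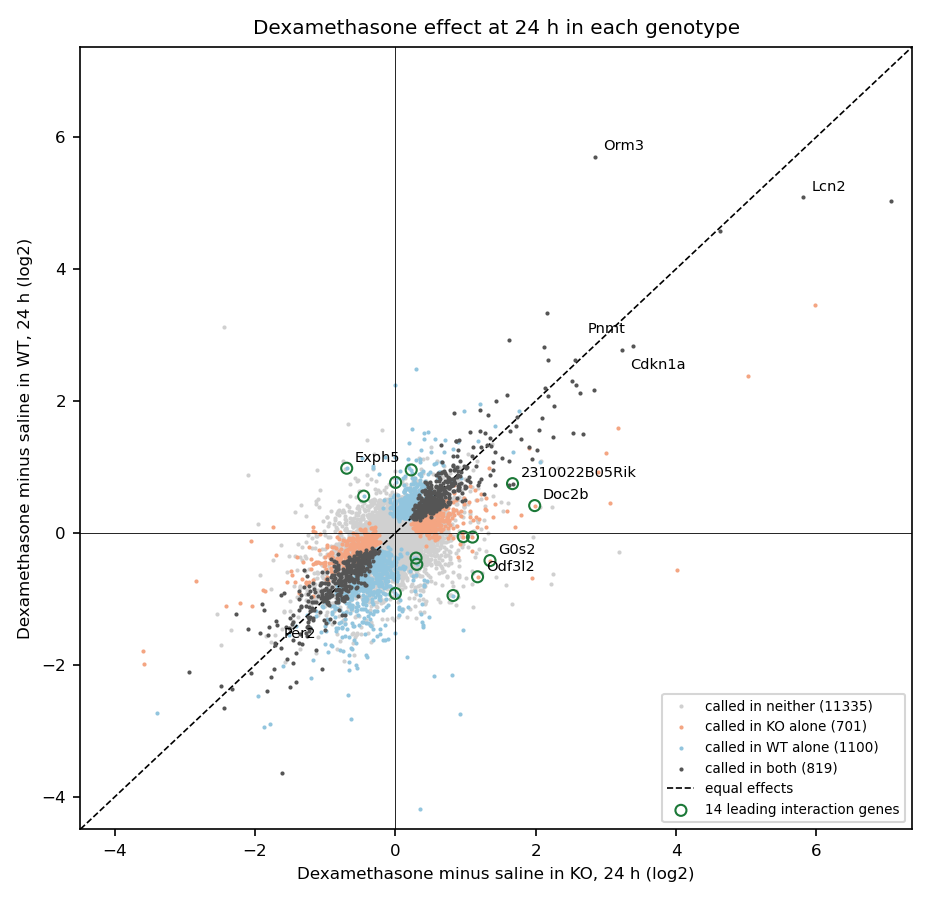
Log2 dexamethasone effect at 24 h in KO (horizontal) and WT (vertical) for 13955 genes, coloured by the genotypes in which the effect had an adjusted p below 0.05, with the line of equal effects dashed and the 14 leading genes of the interaction circled. The 819 genes called in both lie in the lower left and upper right quadrants, and the 14 circled genes, chosen by their interaction, lie off the dashed line.

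The genes that moved most in both genotypes show what the common response was. Lcn2, which encodes the iron-carrier-binding protein lipocalin-2, had 61.7, 66.3, 101, 61.2 and 58 CPM in KO dexamethasone libraries and 1.66, 0.394 and 1.62 CPM in KO saline libraries. It had 99.6, 53.4, 43.2, 51.7 and 95.5 CPM in WT dexamethasone libraries and 1.26, 3.22, 1.37 and 2.23 CPM in WT saline libraries. Every dexamethasone library was far above every saline library, the genotypes overlapped, and the interaction was 0.72 with a 95% interval of -0.58 to 2.01. Cdkn1a, the cell cycle inhibitor p21, rose by 3.22 in KO and by 2.77 in WT, and the interval of its interaction was -0.62 to 1.52. Pnmt, whose product turns noradrenaline into adrenaline, rose by 3.39 in KO and by 2.84 in WT (interval -1.04 to 2.15). Hspa1a, an inducible heat shock protein of the HSP70 family whose reads cannot be cleanly told from its near-identical copy Hspa1b, rose by 2.83 in KO and by 2.17 in WT (interval -0.84 to 2.16). All 5 KO dexamethasone libraries of Hspa1a (9.61 to 23.5 CPM) were above all 5 WT dexamethasone libraries (2.83 to 7.40 CPM), a log2 difference of 1.45 (adjusted p = 0.0263). These interaction intervals all include 0 and are wide.

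The clock repressor Per2 gave the nearest match among these genes. It had 10.2, 17, 13.5, 12.1 and 15.5 CPM in KO dexamethasone libraries and 31.6, 53.7 and 49.2 CPM in KO saline libraries. It had 14, 12.6, 12.9, 10.9 and 13.6 CPM in WT dexamethasone libraries and 39.1, 47.3, 45.9 and 33.2 CPM in WT saline libraries. Dexamethasone libraries were all below saline libraries in both genotypes, with falls of 1.72 in KO and 1.69 in WT and an interaction of -0.02 with an interval of -0.57 to 0.52. H2-Ab1, a chain of the class II antigen-presenting molecule, fell by 1.69 in KO and by 1.40 in WT, and Sfrp2, a secreted Wnt antagonist, by 1.55 and 1.91. Golga7b, known for a part in protein palmitoylation, fell by 1.37 in KO and by 1.66 in WT. Zfp503, a zinc finger repressor, fell by 1.87 in KO and by 1.16 in WT, and its interaction of -0.70 had an interval of -1.34 to -0.07 (unadjusted p = 0.0318, adjusted p = 0.777).

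The acute-phase gene Orm3 rose in both genotypes and stood apart in the dexamethasone libraries. Orm3 had 1.26, 0.656, 1.5, 2.07 and 1.1 CPM in KO dexamethasone libraries and 0.249, 0.0438 and 0.232 CPM in KO saline libraries. It had 9.93, 13.9, 5.52, 6.27 and 24.8 CPM in WT dexamethasone libraries and 0.144, 0.355, 0.274 and 0.0911 CPM in WT saline libraries. All 5 KO dexamethasone libraries were below all 5 WT dexamethasone libraries (log2 difference -3.21, adjusted p = 7.02e-06), while the saline libraries overlapped at the limit of detection. The interaction was -2.86 with a standard error of 1.43 (unadjusted p = 0.0545, adjusted p = 0.777), so the difference in effect was not called although the difference between treated groups was. Orm3 has close paralogs, and how reads shared among them were counted is not given in the sources used here.

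The leading genes of the interaction are the 12 named genes with the smallest p among those of mean log2 CPM 1 or more, and 2 genes known by clone or model number that fall among them, 2310022B05Rik and Gm12185, which were chosen for naming after their values were seen. Their order rests on the interaction p itself, and 10 of the 14 had values above 0. By that choice of genes 11 of the 14 had effects of opposite sign in the genotypes, counting Map9 and Zfp949, whose effect in KO was 0.00 to 2 decimals. Of the 14, 9 differed between KO and WT after dexamethasone at an adjusted p below 0.05 and 4 after saline. Over all genes these shares were 5.19% and 3.17%, but the interaction that chose the genes is the difference of those contrasts in the same libraries, so nothing is read from the counts. Promoter windows of the 250 bases before the start of transcription were available from RefSeq (GRCm38.p6) for 10 of them, and 3 are shown. They belong to the gene nearest the threshold, to G0s2, which rose in KO and was higher in KO than in WT after dexamethasone, and to Tprn, the one of the 10 whose window (the first, where RefSeq gives several) holds the hexamer of the glucocorticoid receptor element. That hexamer, AGAACA, was searched on both strands, so it can read TGTTCT, and it stands in capitals.
2310022B05Rik, chr8:124663370-124663619, minus strand: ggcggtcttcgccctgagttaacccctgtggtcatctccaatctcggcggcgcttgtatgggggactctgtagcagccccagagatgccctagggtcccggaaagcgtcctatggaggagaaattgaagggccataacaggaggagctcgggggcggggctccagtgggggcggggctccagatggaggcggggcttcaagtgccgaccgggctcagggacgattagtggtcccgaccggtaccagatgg
G0s2, chr1:193273189-193273438, minus strand: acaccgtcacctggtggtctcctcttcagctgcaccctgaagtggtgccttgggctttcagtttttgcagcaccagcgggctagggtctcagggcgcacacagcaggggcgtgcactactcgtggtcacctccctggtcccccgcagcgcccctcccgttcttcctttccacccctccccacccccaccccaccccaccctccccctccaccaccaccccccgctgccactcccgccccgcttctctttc
Tprn, chr2:25262348-25262597, plus strand: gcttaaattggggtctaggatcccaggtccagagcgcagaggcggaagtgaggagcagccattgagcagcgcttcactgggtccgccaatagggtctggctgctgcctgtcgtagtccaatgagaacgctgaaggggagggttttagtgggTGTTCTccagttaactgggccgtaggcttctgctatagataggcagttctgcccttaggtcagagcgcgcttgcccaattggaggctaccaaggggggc
The hexamer was found in 16.1% of all 32851 windows of this length, the full palindrome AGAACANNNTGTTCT in 0.00913% of them and in 0 of the 10 leading windows. An E-box (CACGTG) was in 6.02% of all windows and, among the first windows of the 10 genes, in 1, that of Hook2. A missing match says only that these letters are not in this window.

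The gene nearest the threshold was 2310022B05Rik (GRCm38 chr8:124635756-124663369), a protein-coding gene with no role given here. It had 56.6, 52, 66.2, 52.2 and 47.2 CPM in KO dexamethasone libraries and 20.8, 16.2 and 14.8 CPM in KO saline libraries. It had 23.5, 24.6, 22.4, 25.4 and 30.4 CPM in WT dexamethasone libraries and 14.6, 15.1, 13.5 and 17.1 CPM in WT saline libraries. All 5 KO dexamethasone libraries were above all 12 others, the WT dexamethasone libraries came next, and the saline libraries of the genotypes overlapped. It rose by 1.67 in KO (SE 0.128) and by 0.75 in WT (SE 0.113), and the interaction was 0.92 with a standard error of 0.166 and a 95% interval of 0.58 to 1.26. The unadjusted p was 3.91e-06 and the adjusted p 0.0546. Over the other settings and single libraries left out, the smallest adjusted p of any gene, which was that of this gene in all but 2 cases, ran from 0.00171 to 0.628, and this gene was called by DESeq2, by limma-voom, with robust dispersions, without the ML1716 libraries and without 5 single libraries each left out on its own.

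Doc2b (chr11:75768270-75796060), a calcium sensor of vesicle fusion with a known part in insulin-stimulated glucose transporter delivery, had 3.54, 3.25, 2.09, 3.57 and 3.57 CPM in KO dexamethasone libraries and 0.704, 0.92 and 0.772 CPM in KO saline libraries. It had 2.71, 3.05, 2.8, 2.76 and 2.03 CPM in WT dexamethasone libraries and 1.69, 3.19, 1.32 and 1.78 CPM in WT saline libraries. The dexamethasone libraries overlapped between the genotypes and the KO saline libraries were the lowest, below all 14 others. Doc2b rose by 1.99 in KO (adjusted p = 2.3e-06), and its effect in WT was 0.41 (adjusted p = 0.149). Its interaction was 1.57 with a standard error of 0.315 (adjusted p = 0.145). In the authors' deposited tables Doc2b rose in both genotypes at 24 h. The rise was 1.80 in KO (authors' adjusted p = 1.28e-06) and 0.98 in WT (authors' adjusted p = 0.001). The difference lay in saline, at -1.32 for KO against WT (adjusted p = 0.00372), and was 0.25 after dexamethasone (adjusted p = 0.47). Without replicate 3 of the KO dexamethasone group or replicate 3 of the WT saline group the interaction of Doc2b was called.

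G0s2 (chr1:193272160-193273188), an inhibitor of the triglyceride lipase ATGL, had 47.2, 28.7, 18.6, 30.2 and 46.5 CPM in KO dexamethasone libraries and 15.8, 11.9 and 12.6 CPM in KO saline libraries. It had 16, 7.4, 12.6, 12.4 and 12 CPM in WT dexamethasone libraries and 16.1, 18.4, 11.4 and 18.8 CPM in WT saline libraries. Every KO dexamethasone library was above every WT dexamethasone library and every KO saline library, and the other 3 groups overlapped. It rose by 1.35 in KO (adjusted p = 0.00286), its effect in WT was -0.42 (adjusted p = 0.319), and the interaction was 1.77 with an interval of 0.96 to 2.57 (unadjusted p = 8.92e-05, adjusted p = 0.311). G0s2 is also abundant in fat. The summed level of 10 adipocyte markers was 657 to 1000 CPM in KO dexamethasone, 793 to 1310 CPM in KO saline, 1110 to 1630 CPM in WT dexamethasone and 1780 to 2760 CPM in WT saline libraries, and none of the 10 was at 0 in any library. Car3, with a mean of 26200 counts against 1000 for Adipoq and 595 for Plin1, dominates that sum. Gene by gene, 9 of the 10 markers had interactions above 0, as G0s2 had, with a median of 0.29 (0.75 without the ML1716 libraries), 0.92 for Cfd and 0.71 for Adipoq. Over all 13955 genes 7168 had interactions above 0. The median difference of the markers between KO and WT was -0.06 after dexamethasone and -0.58 after saline. Their part in the result for G0s2 was not tested.

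Stk24 and Exph5 were higher after dexamethasone in WT muscle. Stk24 (chr14:121284187-121380496), a germinal-centre kinase also called MST3, had 44.4, 39.9, 40.8, 36.8 and 37.4 CPM in KO dexamethasone libraries and 33, 37.1 and 32.2 CPM in KO saline libraries. It had 67.1, 71.2, 64, 64.9 and 42.9 CPM in WT dexamethasone libraries and 36.3, 36.4, 29.1 and 26.1 CPM in WT saline libraries. It rose by 0.95 in WT (adjusted p = 4.79e-06), its effect in KO was 0.23 (adjusted p = 0.288), and the interaction was -0.73 with a standard error of 0.182 (adjusted p = 0.475). WT dexamethasone replicate 5 was the 1 library of its group within the range of the KO dexamethasone libraries, which overlapped the KO saline libraries. Exph5 (chr9:53301514-53381166), an effector of the vesicle-trafficking GTPase Rab27, had 1.24 to 1.80 CPM in KO dexamethasone and 2.32 to 2.44 CPM in KO saline libraries, against 1.97 to 7.78 CPM in WT dexamethasone and 1.91 to 4.24 CPM in WT saline libraries. Its interaction was -1.67 (interval -2.57 to -0.77, adjusted p = 0.641), and the same WT library, replicate 5, was its low value at 1.97 CPM. Without that library Stk24, Exph5 and Col19a1 were each called in the interaction.

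Col19a1 (chr1:24257683-24587922), a collagen of the fibril-associated kind, had 2.93 to 3.83 CPM in KO dexamethasone and 4.56 to 4.75 CPM in KO saline libraries, against 2.12 to 4.55 CPM in WT dexamethasone and 2.26 to 2.98 CPM in WT saline libraries. In KO the treated libraries were all below the saline ones, and in WT all but replicate 5 were above them, so the interaction was -1.01 (SE 0.239, adjusted p = 0.389). For Col19a1 KO differed from WT by 0.85 in saline (adjusted p = 0.00769) and by -0.16 after dexamethasone (adjusted p = 0.637). Map9, a microtubule-associated protein, fell by 0.92 in WT (adjusted p = 4.21e-05), and its effect in KO was 0 (adjusted p = 0.998). Map9 stood at 3.63 to 4.84 CPM in KO dexamethasone and 3.52 to 4.60 CPM in KO saline libraries, against 2.23 to 3.33 CPM in WT dexamethasone and 4.31 to 6.19 CPM in WT saline libraries, and its interaction was 0.92 (interval 0.48 to 1.35). Hook2, which links cargo to microtubules, rose by 0.97 in KO (adjusted p = 0.00187) with an effect of -0.06 in WT (adjusted p = 0.881). KO differed from WT in Hook2 by -0.75 in saline (adjusted p = 0.043) and by 0.27 after dexamethasone (adjusted p = 0.4). Wisp2, a secreted matricellular protein of the CCN family, rose by 1.10 in KO (adjusted p = 0.00217), and its effect in WT was -0.06 (adjusted p = 0.888). Interactions were 1.02 for Hook2 and 1.16 for Wisp2, and neither was called (adjusted p = 0.641 for both). The remaining leading genes were Tprn (0.78), the ubiquitin ligase Rnf144b (0.68), the zinc finger gene Zfp949 (-0.76), Odf3l2 (1.84) and Gm12185 (1.77), with adjusted p-values between 0.389 and 0.641.

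Odf3l2 (chr10:79639526-79645738), named for its likeness to an outer dense fibre protein of sperm tails, was another gene whose genotype gap lay in saline. It had 19.3, 16.5, 20.9, 13.6 and 14.9 CPM in KO dexamethasone libraries and 12.4, 3.37 and 6.95 CPM in KO saline libraries. It had 36.6, 22.6, 15.1, 16.1 and 19 CPM in WT dexamethasone libraries and 42.9, 47.6, 14.8 and 33.6 CPM in WT saline libraries. KO saline libraries were below all others, dexamethasone libraries overlapped, and KO differed from WT by -2.19 in saline (adjusted p = 0.000384) and by -0.35 after dexamethasone (adjusted p = 0.527).

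**Figure D2:**
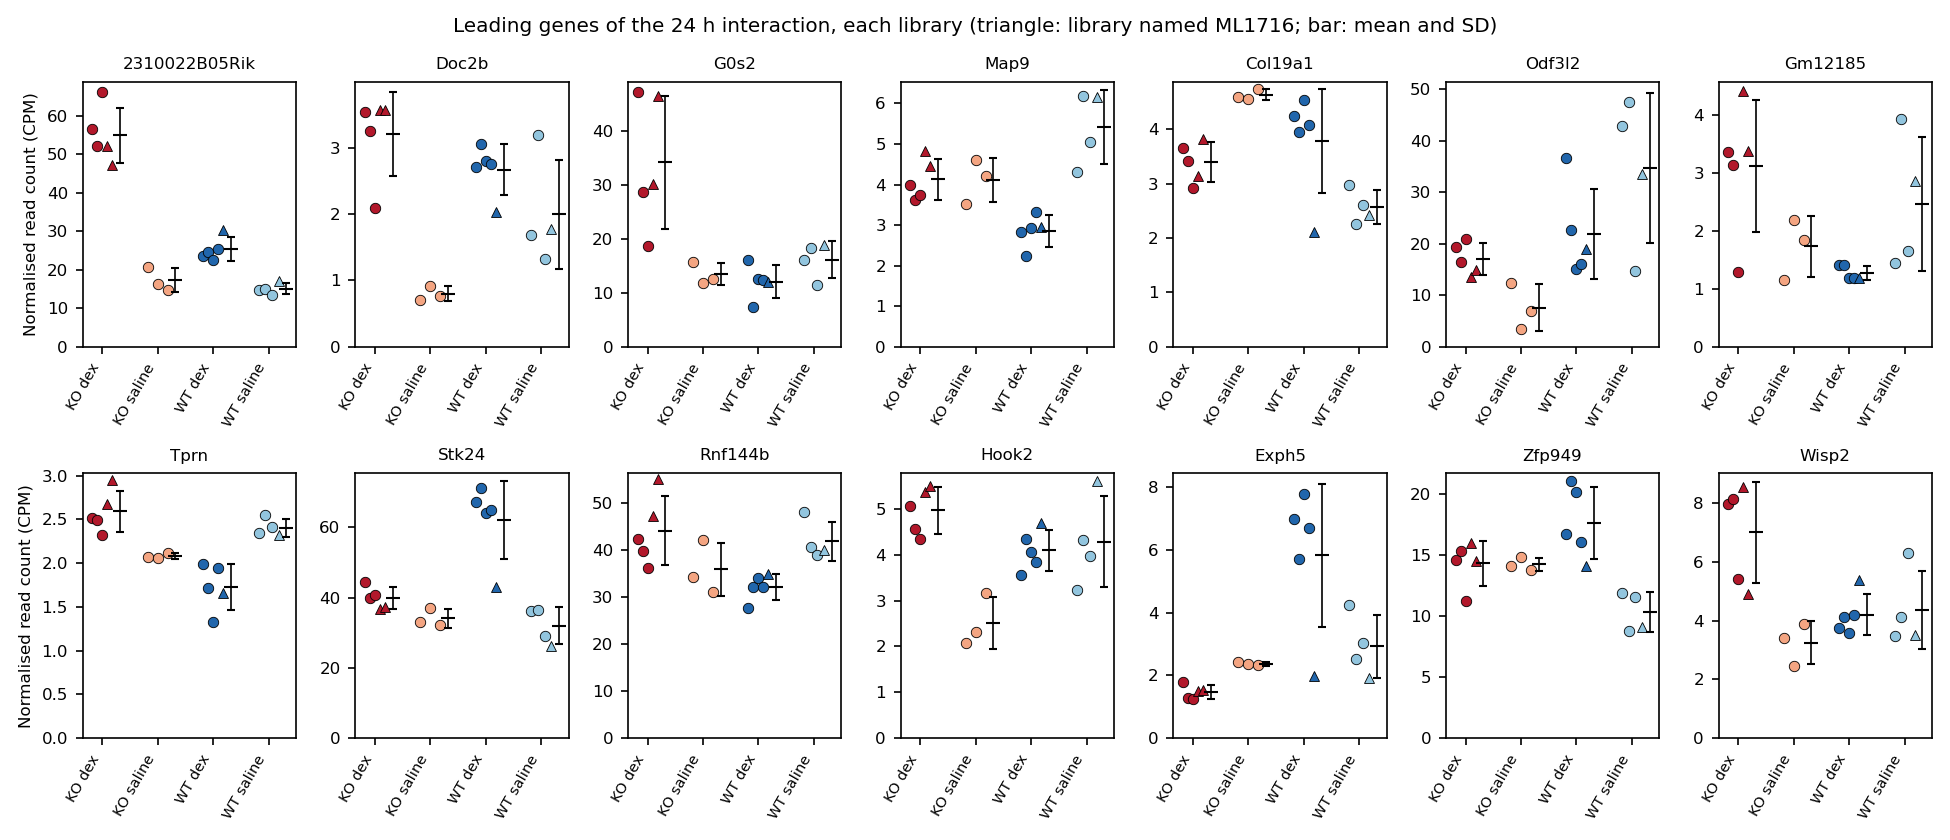
Normalised read counts (CPM, linear axes from 0) of the 14 leading genes in each 24 h library, ordered by interaction p, with KO dexamethasone, KO saline, WT dexamethasone and WT saline from left to right, triangles for the ML1716 libraries, and mean and SD beside each group. The 5 KO dexamethasone libraries of 2310022B05Rik sit between 47.2 and 66.2 CPM, above all 12 others, and the WT dexamethasone triangle is the low point of Stk24, Exph5 and Col19a1.

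The libraries at 3 h give the same interaction in other libraries. The order of the leading genes did not use their 3 h effects, although the 3 h libraries entered the same fit and so took part in the filter and the estimate of spread behind the 24 h p-values. With the 24 h libraries fitted alone the smallest adjusted p was 0.415, again for 2310022B05Rik, and 653 genes had an unadjusted p below 0.05. At 3 h 0 genes were called, 460 had an unadjusted p below 0.05 (3.3%), DESeq2 called 5 and limma-voom 8. Of the 14 leading genes 6 had the same sign at 3 h as at 24 h, and 2 of the 14 reached an unadjusted p below 0.05. Odf3l2 had an interaction of 1.53 at 3 h (interval 0.61 to 2.45, unadjusted p = 0.00193, adjusted p = 0.99) and Rnf144b of 0.47 (interval 0.10 to 0.83, unadjusted p = 0.0144, adjusted p = 0.999). For 2310022B05Rik the interaction at 3 h was 0.06 (interval -0.29 to 0.41). The change of that interaction with time, 24 h minus 3 h, was 0.86 (unadjusted p = 0.00107) and did not pass the adjustment. Over all genes 0 changes of the interaction with time were called by edgeR, 337 had an unadjusted p below 0.05 (2.41%), and DESeq2 and limma-voom called 0 each, so no gene was shown to have an interaction particular to 24 h.

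**Figure D3:**
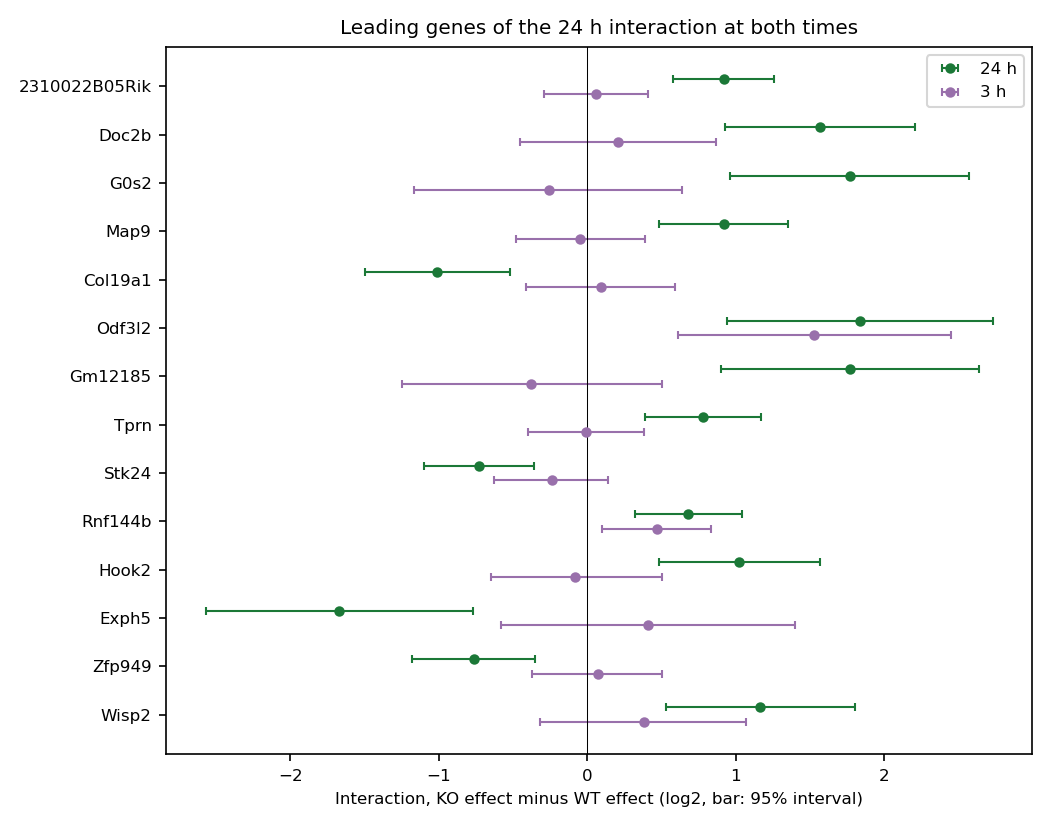
Log2 interaction (KO effect minus WT effect) of the 14 leading genes at 24 h (green) and 3 h (purple), with 95% intervals, ordered by the 24 h p from top to bottom. At 3 h the intervals of Odf3l2 and Rnf144b lie above 0 and the other 12 include 0.

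Gene lists were then read for their counts and medians beside those of all genes. Of 592 listed genes in 36 lists 568 were tested, and 0 had a called interaction. For comparison, unadjusted interaction p-values below 0.05 covered 3.32% of all genes above 0 and 2.82% below 0, KO calls 5.87% up and 5.02% down, and WT calls 6.77% up and 6.98% down. Interactions were above 0 in 7168 of all 13955 genes. All list values below are counts and medians of log2 effects, and no list was tested as a set.

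Protein breakdown genes moved in both genotypes. Of 22 atrophy genes 8 rose and 1 fell in KO, and 9 rose and 1 fell in WT, with medians of 0.15 in KO and 0.16 in WT and a median interaction of -0.08. Trim63, the muscle ubiquitin ligase MuRF1, rose by 1.32 in KO and by 1.78 in WT, and Fbxo32, the ligase atrogin-1, by 1.20 in KO and 1.87 in WT; their interactions were -0.46 and -0.66 with unadjusted p-values of 0.2 and 0.117. Mstn, which encodes the growth inhibitor myostatin, had 48.8 to 66.6 CPM in KO dexamethasone and 44.9 to 64.6 CPM in KO saline libraries, against 132 to 211 CPM in WT dexamethasone and 86.2 to 152 CPM in WT saline libraries. Every KO library was below every WT library. Mstn rose by 0.64 in WT (adjusted p = 0.00633), its effect in KO was 0.13 (adjusted p = 0.686), and its interaction was -0.52 (unadjusted p = 0.0356, adjusted p = 0.777). At 3 h the interaction of Mstn was on the other side of 0, at 0.66 with an interval of 0.16 to 1.16 (unadjusted p = 0.0115, adjusted p = 0.999). Its change with time was -1.17 (unadjusted p = 0.00157) and did not pass the adjustment. Of 31 proteasome subunits 17 rose in KO and 9 in WT, 0 fell in either, and the medians were 0.32 in KO and 0.21 in WT. Their interactions were above 0 in 28 of 31 with a median of 0.16, and 1 had an unadjusted p below 0.05, the core subunit Psma5 at 0.45 (0.0367). Proteasome scores, the mean log2 CPM of the members less the mean of the 17 libraries, were 0.25 and 0.39 in the 2 ML1716 libraries of the KO dexamethasone group and 0.06 to 0.11 in its other 3, against 0.01 to 0.11 in WT dexamethasone libraries, and without the ML1716 libraries the median interaction was 0.04.

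Fatty acid genes with the smallest interaction p-values lay below 0. Of 28 fatty acid genes 1 rose and 3 fell in KO and 6 rose and 2 fell in WT, with a median interaction of -0.12, and 5 had an unadjusted interaction p below 0.05, all below 0. Pdk4, the kinase that holds back glucose oxidation, had 848, 2060, 589, 1720 and 1040 CPM in KO dexamethasone libraries and 2150, 967 and 1040 CPM in KO saline libraries, against 1710, 2840, 2330, 730 and 767 CPM in WT dexamethasone libraries and 625, 777, 1060 and 556 CPM in WT saline libraries. All 4 groups overlapped, and 3 of the 5 WT dexamethasone libraries stood above every WT saline library. Pdk4 rose by 1.15 in WT (adjusted p = 0.0196), had an effect of -0.15 in KO (adjusted p = 0.828) and an interaction of -1.30 (unadjusted p = 0.0116). Acot2, a mitochondrial acyl-CoA thioesterase, rose by 1.51 in WT (adjusted p = 0.000287), had an effect of 0.41 in KO (adjusted p = 0.383) and an interaction of -1.10 (unadjusted p = 0.00857). The other 3 were the fatty acid importer Cpt1a (-0.54), the uncoupling protein Ucp3 (-0.78) and the acyl-CoA ligase Acsl1 (-0.42), and none of the 5 was called (adjusted p = 0.777 for each). Fatty acid scores of the KO saline libraries ran from -0.33 to 0.26, and without the highest of them, replicate 1, the median interaction was 0.03. Irs1, the first docking protein of the insulin receptor, rose by 0.73 in WT (adjusted p = 0.00135) with an effect of 0.13 in KO and an interaction of -0.60 (unadjusted p = 0.0114). Irs1 shares 30.9% of its exon bases with another gene, counted over both strands, and the strand of that gene was not looked up. The kit does not mark strand, so reads of the shared stretch could not be assigned by strand. Ppp1r3c, which targets a phosphatase to glycogen, had 807, 605, 547, 1000 and 607 CPM in KO dexamethasone libraries and 434, 243 and 198 CPM in KO saline libraries, against 1050, 705, 730, 728 and 539 CPM in WT dexamethasone libraries and 857, 914, 196 and 864 CPM in WT saline libraries. WT saline replicate 3, at 196 CPM, was far below the other 3 of its group. Ppp1r3c rose by 1.29 in KO (adjusted p = 0.00524) with an effect of 0.08 in WT and an interaction of 1.21 (unadjusted p = 0.00489), called without WT saline replicate 3.

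Of 25 glucocorticoid receptor targets 6 rose and 3 fell in KO and 8 rose and 5 fell in WT, with medians of -0.14 in KO and 0.09 in WT and a median interaction of -0.05. That median ran from -0.15 to 0.05 with single libraries left out, above 0 without KO saline replicate 1, and from -0.08 to 0.08 in the other settings, so it has no stable sign. The list was drawn up with earlier results of these data known, so it is no independent evidence of a direction. Fkbp5, the receptor's co-chaperone and feedback inhibitor, rose by 1.91 in KO and by 1.30 in WT. The metallothionein Mt2 rose by 2.14 in KO and by 2.19 in WT, and Per1 fell by 1.03 in KO and by 0.97 in WT. Tsc22d3, the target also called GILZ, had effects of -0.27 in KO and -0.25 in WT, neither called. Interactions of the 4 members with an unadjusted p below 0.05 were -1.33 for the transcription factor Cebpd, -1.30 for Pdk4, -0.43 for Klf9 and 0.84 for Hif3a. The receptor gene itself, Nr3c1, had effects of -0.03 in KO and 0.13 in WT. Among polyamine and zinc genes, Slc30a2, a zinc exporter, rose by 2.03 in KO and by 1.26 in WT with an interaction of 0.76 (edgeR unadjusted p = 0.00328, adjusted p = 0.74). Its interaction at 3 h was 1.08 (edgeR adjusted p = 0.277), above 0 as at 24 h. At 24 h KO differed from WT in Slc30a2 by -1.05 in saline (edgeR adjusted p = 0.00137). After dexamethasone the difference was -0.29 (edgeR adjusted p = 0.295). Sat1, which acetylates polyamines for export, had 11.1 to 20.1 CPM in KO dexamethasone and 7.88 to 8.70 CPM in KO saline libraries, against 9.03 to 15 CPM in WT dexamethasone and 8.78 to 12.6 CPM in WT saline libraries. Sat1 rose by 0.78 in KO, its effect in WT was -0.03, and its interaction was 0.81 (edgeR unadjusted p = 0.00228, adjusted p = 0.697).

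**Figure D4:**
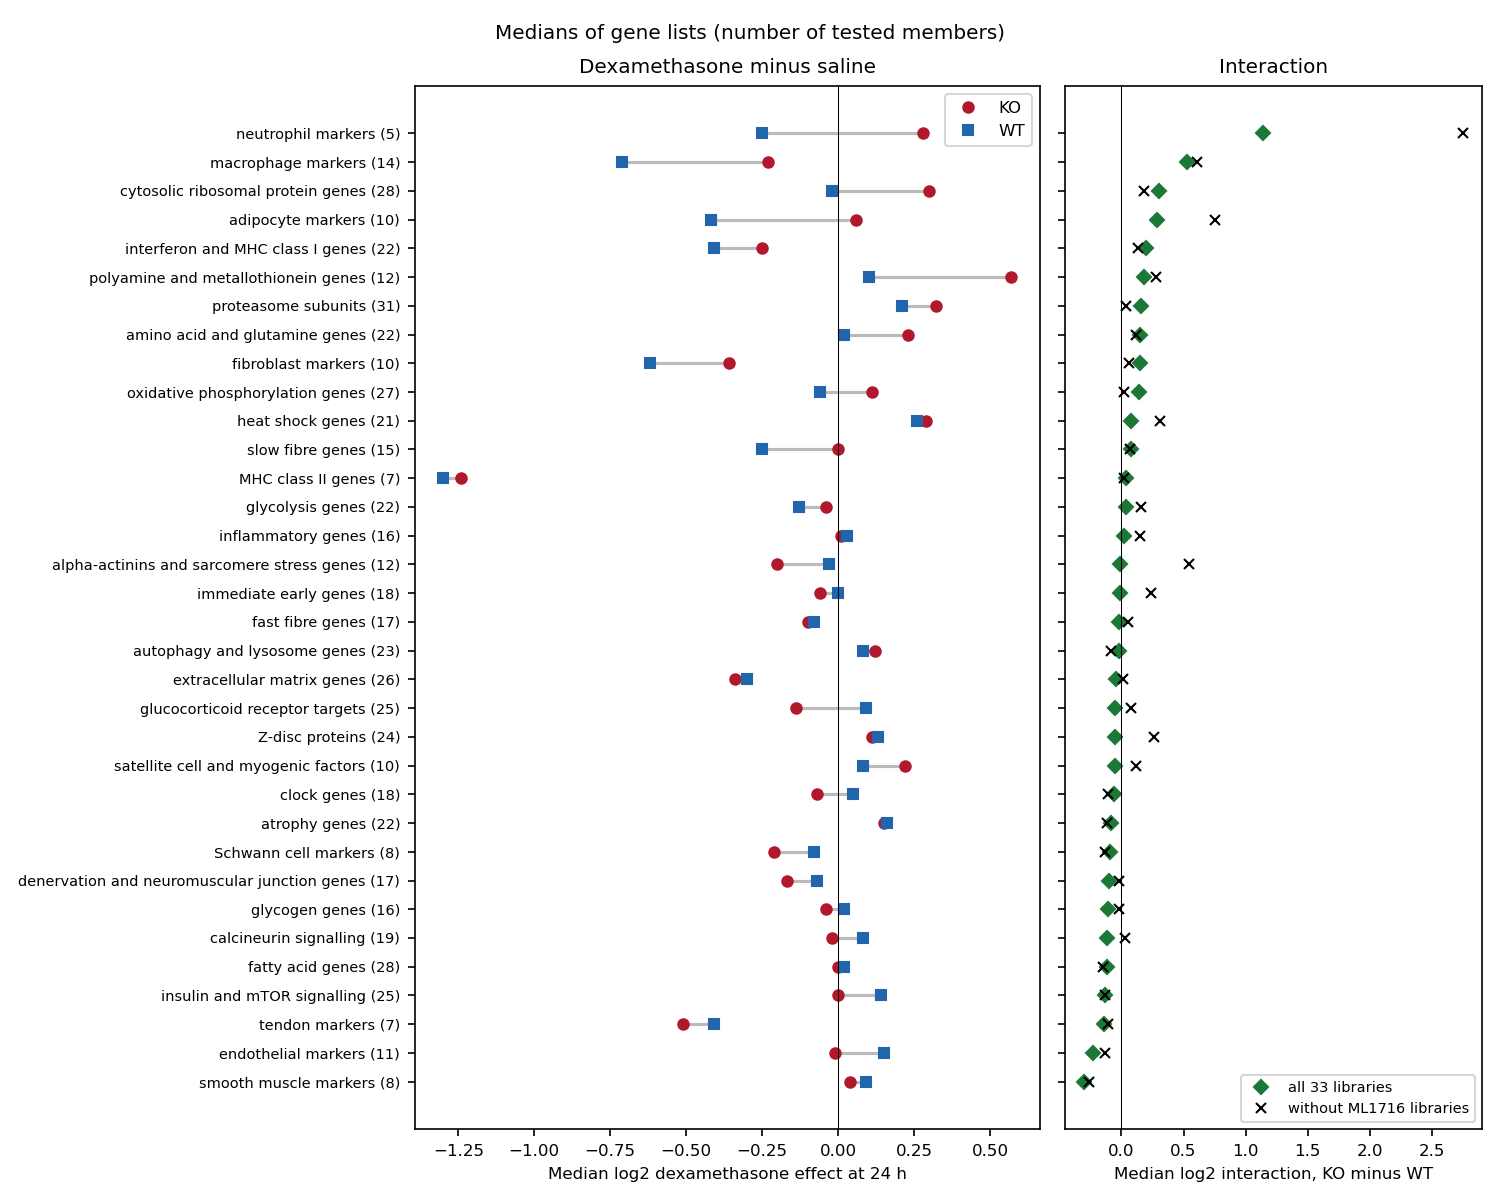
Median log2 dexamethasone effect at 24 h in KO (red circles) and WT (blue squares) for the 34 lists with at least 5 tested members, and at the right the median interaction over all 33 libraries (green) and without the ML1716 libraries (crosses). Macrophage markers lie at -0.23 in KO and -0.71 in WT, and neutrophil markers, with 5 members, stand at 1.14 over all libraries and at 2.75 without ML1716.

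Markers of resident cells moved as well. Of 14 tested macrophage markers 1 fell in KO and 9 fell in WT, with medians of -0.23 in KO and -0.71 in WT; interactions were above 0 in 13 of 14, with a median of 0.53, and 3 had an unadjusted p below 0.05. Lyz2 (lysozyme) had an interaction of 0.62 (0.0296), C1qa (a complement chain) of 0.69 (0.0407) and Fcgr1 (an antibody receptor) of 1.14 (0.0465), all unadjusted. Macrophage scores were -0.16 to -0.09 in KO dexamethasone and -0.12 to 0.25 in KO saline libraries, against -0.41 to -0.12 in WT dexamethasone and -0.05 to 0.93 in WT saline libraries. The summed markers were 238 to 274 CPM in KO dexamethasone, 251 to 326 CPM in KO saline, 230 to 275 CPM in WT dexamethasone and 296 to 538 CPM in WT saline libraries, and no macrophage marker was at 0 in any library. The dexamethasone groups overlapped, and the highest library was WT saline replicate 2, without which the median interaction was 0.28. The part of that library in the result beyond this value was not tested. Class II genes fell in both genotypes, 6 of 7 in KO and 7 of 7 in WT, with medians of -1.24 in KO and -1.30 in WT, and of 22 interferon and class I genes 6 fell in KO and 9 in WT.

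Cytosolic ribosomal protein genes had a median effect of 0.30 in KO and -0.02 in WT, and 25 of 28 had interactions above 0 with a median of 0.30. Of the 28, 1 rose in KO (Rps14, 0.75, adjusted p = 0.0345) and 0 changed in WT, while 4 were lower in KO than in WT after saline (list median -0.39, background 1.61%) and 0 differed after dexamethasone (median -0.11). Ribosomal scores were -0.10 to 0.11 in KO dexamethasone and -0.32 to -0.16 in KO saline libraries, against -0.03 to 0.41 in WT dexamethasone and -0.07 to 0.43 in WT saline libraries. KO saline libraries were below all 14 others, and the highest 2 libraries, WT dexamethasone replicate 5 and WT saline replicate 4, are of the ML1716 name series. The median interaction was 0.18 without the ML1716 libraries and 0.15 with a term for the name series. Ribosomal protein genes have many processed pseudogenes, and how reads shared with them were counted is not given in the sources used here.

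**Figure D5:**
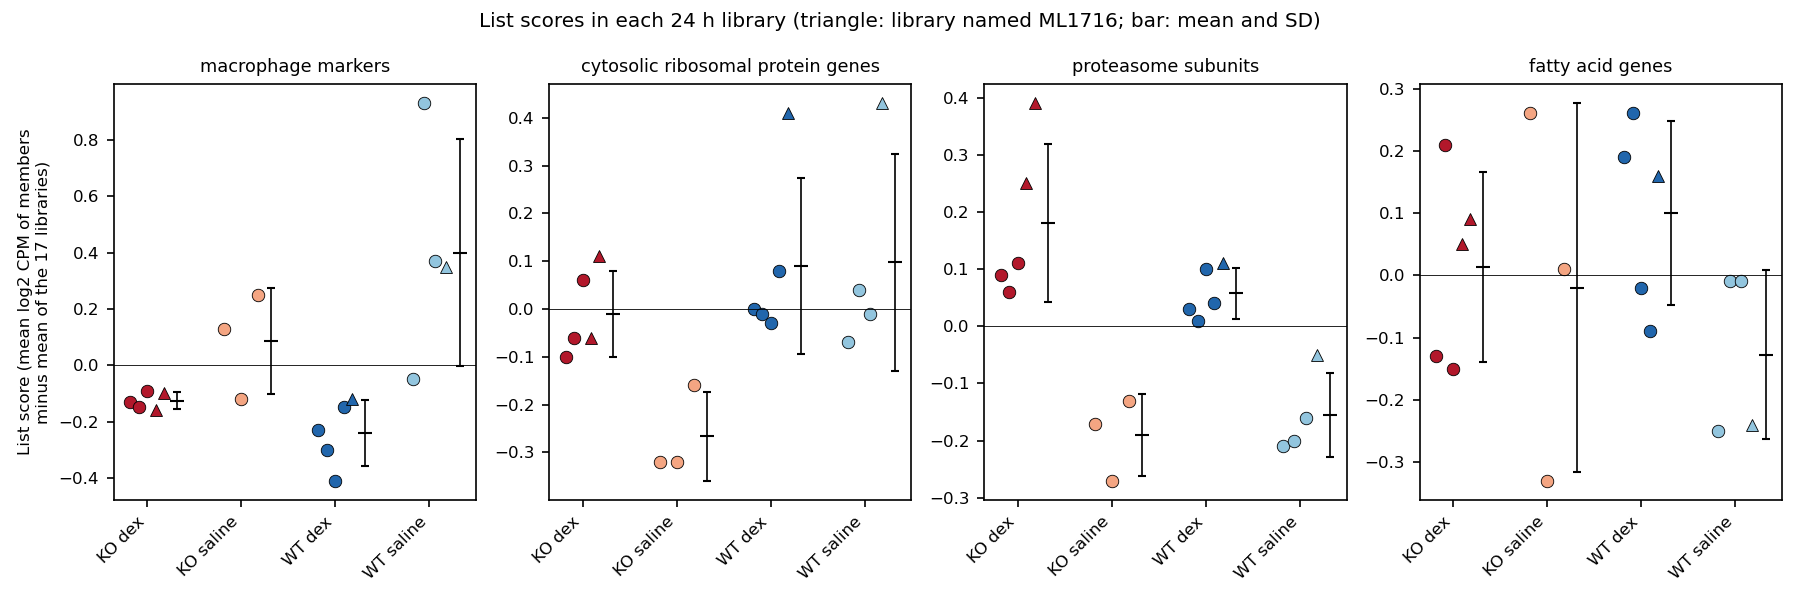
List scores (mean log2 CPM of the members less the mean of the 17 libraries, prior count 2) of macrophage markers, cytosolic ribosomal protein genes, proteasome subunits and fatty acid genes in each 24 h library, with triangles for ML1716 libraries and mean and SD beside each group. WT saline replicate 2 stands at 0.93 for macrophage markers, and all 3 KO saline libraries lie below the other 14 for ribosomal protein genes.

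Among genes of the fibre itself, of 17 fast fibre genes 1 rose and 1 fell in KO, and 0 were called in WT. Of 15 slow fibre genes 0 were called in either genotype. Of 24 Z-disc genes 3 rose and 1 fell in KO, and 2 rose and 1 fell in WT. Over all genes KO calls were 5.87% up and 5.02% down, and WT calls 6.77% up and 6.98% down. Fast fibre genes (17 tested) had medians of -0.10 in KO and -0.08 in WT, slow fibre genes (15) of 0 in KO and -0.25 in WT, and Z-disc proteins (24) of 0.11 in KO and 0.13 in WT. Between the genotypes, 3 of the 24 Z-disc genes were called higher in KO after dexamethasone and 4 after saline, with list medians of 0.28 and 0.33, and 0 were called lower in KO. Of all 13955 genes tested, 354 were called higher and 370 lower in KO after dexamethasone. After saline 217 were called higher and 225 lower. The fast fibre list had 1 called genotype difference in each treatment, Actn3 itself. The fast myosin Myh4 had an interaction of -0.52 (unadjusted p = 0.0372) with effects of -0.37 in KO and 0.15 in WT, neither called. Among myogenic factors, Myog (myogenin) fell by 0.72 in WT (adjusted p = 0.0415), had an effect of 0.45 in KO (adjusted p = 0.298), and had an interaction of 1.17 (unadjusted p = 0.00305, adjusted p = 0.74). Of 26 extracellular matrix genes 9 fell in KO, and 10 fell and 1 rose in WT, with a median interaction of -0.04. Fn1 (fibronectin) fell by 1.15 in KO and by 0.85 in WT. Of 21 heat shock genes 8 rose in KO and 6 in WT, and of 18 clock genes 3 rose and 6 fell in KO and 4 rose and 6 fell in WT, with median interactions of 0.08 for heat shock and -0.06 for clock genes. With single libraries left out the median ran from -0.04 to 0.18 for heat shock, from -0.11 to 0.04 for matrix, from -0.17 to 0.11 for Z-disc and from -0.09 to 0.34 for slow fibre genes, so none of these 4 had a stable sign.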

How the data were processed

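RNA of mouse quadriceps was sequenced from an unstranded Illumina kit, per the labels' protocols. The deposited files give raw read counts per gene symbol, with a file for each library. STAR, HTSeq, limma 3.40.6 and the mm10 genome are listed in the submitters' processing notes, and the role of each tool is not given in the sources used here. The lines for reads of no feature (26.6 to 33.2% at 24 h) and ambiguous reads (0.211 to 0.3%) were left out. The analysis of the counts used edgeR 4.0.16 under R 4.3.3: filterByExpr with the 8 groups, TMM scaling (factors 0.935 to 1.09 at 24 h), 1 quasi-likelihood fit over 33 libraries, contrasts of group means, and Benjamini-Hochberg adjustment at 0.05. A standard error is the log2 effect divided by the root of F. CPM are TMM-scaled, and log2 CPM has a prior count of 2.

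The authors deposited tables with log2 fold changes and raw and adjusted p-values, per the file headers; their design is not given in the sources used here. Alternatives used limma 3.58.1, DESeq2 1.42.0, other scalings and filters, the 24 h libraries alone, and leaving out libraries; robust dispersions were added after seeing the data. All 29 within-group library pairs differed beyond sampling noise (chi-square over degrees of freedom at least 13.7). Replicate numbers follow listing order. Members and lists were chosen with earlier results of these data known. Named genes are Actn3, the 12 smallest interaction p-values at mean log2 CPM of 1 or more (genes with a clone number counted), 2 members per list by interaction p, and the 5 largest shared rises and falls; further list members were named after their values were seen. Positions and promoters are RefSeq's (GRCm38.p6, the build that mm10 names). Positions were matched by symbol for the 93 named genes, except that Wisp2 was matched as Ccn5. The further list members were not looked up. A simulation of counts with set changes served to check the test.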

Additional observations from a re-analysis of the deposited data

Results flagged for a closer look

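In 93 groups of 4 or 5 values tested, 11 had 1 library far from the others by the gap over the range. Among independent groups chance flags about 1 in 20. These groups share the same libraries, and many of the genes were chosen by their interaction, so no excess over chance is read from the count. The KO saline group, with 3 libraries, was too small for this check, so it could have no flags. Values are log2 CPM, or scores for lists. KO dexamethasone replicate 3 was low for Doc2b (1.11, others 1.73 to 1.86), Zfp949 (3.49, others 3.86 to 4.01) and Gm12185 (0.44, others 1.68 to 2.17), and high for Lcn2 (6.66, others 5.86 to 6.05). WT dexamethasone replicate 5, an ML1716 library, was low for Col19a1 (1.13, others 2.01 to 2.21), Stk24 (5.43, others 6 to 6.16), Exph5 (1.03, others 2.53 to 2.97) and H2-Ab1 (2.87, others 3.6 to 3.8). The same library was high for the scores of cytosolic ribosomal protein genes (0.41, others -0.03 to 0.08) and neutrophil markers (2.03, others -0.56 to -0.31). WT saline replicate 3 was high for Sfrp2 (2.98, others 1.72 to 1.93).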

How the results depend on the processing

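No paired analysis was possible because replicate numbers here only follow listing order and pair no libraries. The count of called interactions at 24 h, 0 in the reported fit, was 3 with DESeq2 and 1 each with limma-voom, without the ML1716 libraries and with robust dispersions (chosen after seeing the data), 0 in the other 5 settings, and 0 to 4 with single libraries left out; each of the 14 leading genes kept its sign and an unadjusted p below 0.05 in all of these. With KO dexamethasone replicate 3 left out 4 genes were called (Doc2b, Gm12185, 2310022B05Rik, G0s2), with WT saline replicate 3 left out 4 (Doc2b, 2310022B05Rik, Ppp1r3c, Odf3l2), with WT dexamethasone replicate 5 left out 4 (2310022B05Rik, Col19a1, Stk24, Exph5), and with KO saline replicate 1 or KO dexamethasone replicate 5 left out 1 (2310022B05Rik). With the 24 h libraries alone calls fell to 996 for dexamethasone in KO, 413 for KO against WT in dexamethasone and 193 in saline. That fit used fewer libraries and tested 13615 genes, and the cause of the fall was not tested. Limma-voom gave 3001 calls for dexamethasone in WT, 1480 for KO against WT in dexamethasone and 8 for the 3 h interaction, DESeq2 gave 730 for KO against WT in saline and 5 for the 3 h interaction, and leaving out ML1716 gave 1089 for KO against WT in dexamethasone; the cause was not tested. With single libraries left out, calls ran from 786 to 1585 for dexamethasone in KO, 1247 to 2273 in WT, 445 to 1174 for KO against WT in dexamethasone, 100 to 673 in saline, 0 to 1 for the 3 h interaction and 0 to 1 for list members (Ppp1r3c). With library totals alone the share of rises among the WT calls was 38.6%, against 49.2% with TMM. Interactions near 0 changed sign: Per2 to 0 (totals alone), 0.04 (limma-voom), 0.08 (without ML1716) and 0.01 (name series term), and between -0.22 and 0.13 with libraries left out; Golga7b to -0.02 (limma-voom) and -0.01 (without ML1716), and between -0.18 and 0.54; Pnmt between -0.12 and 1.44; Sfrp2 between -0.02 and 0.51.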

Other observations

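Other cell type lists differed in how far their median interaction moved between settings. Of 10 fibroblast markers 10 had values above 0 with a median of 0.15 (0.06 without the ML1716 libraries), 1 rose and 3 fell in KO, and 0 rose and 5 fell in WT. Of 10 adipocyte markers 9 had values above 0 with a median of 0.29, or 0.75 without the ML1716 libraries, and at 3 h the median was 1.04 with 6 of 10 at an unadjusted p below 0.05, all above 0. Of 11 endothelial markers 1 had a value above 0, with a median of -0.23 (-0.28 to -0.14 with single libraries left out). Of 8 smooth muscle markers 2 had values above 0, with a median of -0.30 (-0.35 to -0.16 with single libraries left out). Myh11 (-0.50) and Mylk (-0.34) were the 2 smooth muscle markers with an edgeR unadjusted p below 0.05. The 5 tested neutrophil markers had a median of 1.14, which was -0.39 without WT saline replicate 2, 2.51 without WT dexamethasone replicate 5 and 2.75 without the ML1716 libraries. Mpo was at 0 in 16 and Elane in 13 of the 17 libraries. None of these list members had a called interaction.

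Among inflammatory genes, the monocyte chemokine genes Ccl2 and Ccl7 had interactions of 1.84 and 2.86 with unadjusted p-values of 0.0163 and 0.00548 (edgeR adjusted p = 0.777 for both), at low levels. Ccl7 stood at 0.18 to 0.658 CPM in KO dexamethasone and 0 to 0.249 CPM in KO saline libraries, against 0.108 to 0.639 CPM in WT dexamethasone and 0.108 to 0.709 CPM in WT saline libraries. Myc, a growth-promoting transcription factor, had 2.63 to 6.97 CPM in KO dexamethasone and 6.33 to 12 CPM in KO saline libraries, against 1.92 to 7.75 CPM in WT dexamethasone and 2.51 to 6.86 CPM in WT saline libraries. Myc fell by 1.15 in KO (edgeR adjusted p = 0.0181), its effect in WT was 0.02, and its interaction was -1.17 (unadjusted p = 0.0128, adjusted p = 0.777).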
